A study of Mus musculus with 2 samples.

Results

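The 10 genes described here encode the mTOR kinase complexes, the TSC-Rheb switch that controls them and S6K1, a kinase downstream of mTOR. The genes are Mtor, Mlst8, Deptor, Rptor, Akt1s1, Rictor, Tsc1, Tsc2, Rheb and Rps6kb1. They were found by gene symbol, no threshold on a measured value being used, although the set was drawn up with earlier results of these data known, and make up 10 of the 21829 genes measured in C2C12, an immortalised mouse myoblast line. RNA sequencing was done on 1 library of WT C2C12 cells and 1 library of cells whose genotype is labelled GNE KO. Both were grown as myoblasts in serum-containing DMEM, and the labels name no starvation or drug for either. The KO line was made by Cas9 cutting within a coding exon of Gne and was grown up from a single edited cell, so it stands for a single clone. Gne encodes the bifunctional enzyme that starts sialic acid synthesis, and the comparison asks how its loss in muscle precursor cells bears on mTOR signalling and autophagy.

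mTOR is a serine/threonine kinase that works in a pair of complexes. In mTORC1 it is joined by Raptor and promotes protein synthesis and growth while holding back autophagy and lysosome production. In mTORC2 it is joined by Rictor and phosphorylates Akt and related kinases. Growth factor signals reach mTORC1 through Akt, which inhibits the TSC1-TSC2 complex, a GTPase-activating protein that keeps the small GTPase Rheb off. Amino acids act by another route, in which Rag GTPases bring mTORC1 to the lysosome surface where Rheb activates it. Most of this control acts on protein activity and location, which messenger RNA levels do not measure.

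The edited gene was read first. Gne (chromosome 4, bases 44034074 to 44084187, GRCm39, minus strand) was at 6.67 FPKM in WT and 7.34 FPKM in the KO-labelled library, so its RNA was not lower there, and its log2 fold change was 0.12. FPKM counts sequenced fragments scaled by transcript length and by the size of the library, so that genes can be compared with each other. A small insertion or deletion need not lower the RNA, and the level therefore neither bears out nor contradicts the label. The second group is called the KO-labelled library throughout.

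With 1 library of each genotype no difference has a replicate check, and no p-value, standard error or interval is given. Differences are log2((labelled KO + 1)/(WT + 1)) of FPKM, called log2 fold changes below, and genes were kept where their mean reached 1 FPKM. A size of 2-fold, a log2 fold change beyond 1, is used only to count. Of the 10542 genes past that filter, 2.84% were at least 2-fold higher in the KO-labelled library and 3.43% at least 2-fold lower. By the smaller size of 1.5-fold, 7.68% were higher and 7.50% lower.

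All 10 genes passed the filter. Deptor was the one gene of the 10 past 2-fold, and it was lower in the KO-labelled library. The other 9 had log2 fold changes between −0.24 and 0.13, and 8 of these 9 lay inside the interquartile range of all genes, −0.21 to 0.23. Without the added 1, their ratios of labelled KO to WT lay between 0.830 and 1.11. By count, 6 of the 10 were higher and 4 lower, and 0 were past 1.5-fold higher against 1 lower. Beside the 3.43% of all genes past 2-fold lower, 1 gene of 10 does not set these genes apart. The median of the 10 was 0.022, beside 0.0061 for all genes past the filter. In bulk RNA, fewer cells of a type and less RNA per cell cannot be told apart.

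**Figure D1:**
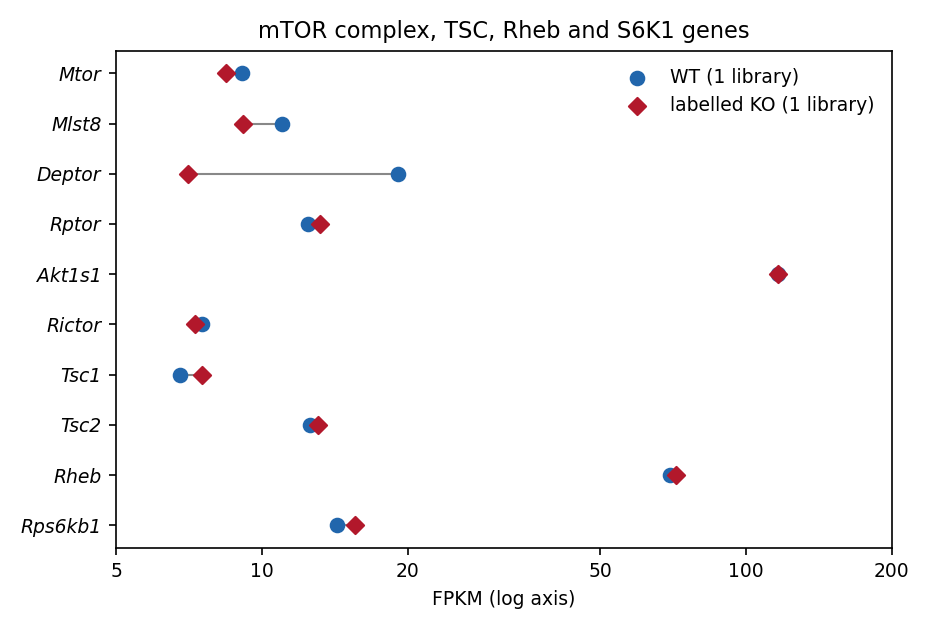
FPKM of the 10 genes on a log axis, with 1 circle for the WT library and 1 diamond for the KO-labelled library; there are no error bars because each genotype has 1 library. Deptor has the long line between its points, from 19.1 to 7.04 FPKM, and the pairs of the other genes lie close together or touch.

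The subunits shared by both complexes come first. Mtor, the kinase itself (chromosome 4, bases 148533015 to 148642141, plus strand), was at 9.12 FPKM in WT and 8.45 FPKM in the KO-labelled library. Its log2 fold change of −0.10 was close to the median of −0.08 over the 54 genes past the filter within 5 Mb of it. Mlst8, the WD-repeat protein that binds the kinase domain (chromosome 17, bases 24692524 to 24698057, minus strand), was at 11.0 FPKM in WT and 9.15 FPKM in the KO-labelled library. Its log2 fold change of −0.24 was the lowest of the 10 genes after Deptor and just outside the interquartile range of all genes. The median over the 130 genes past the filter within 5 Mb of Mlst8 was −0.09, and less that median Mlst8 was at −0.16. Both core subunits were thus lower in the KO-labelled library, by amounts that 36.5% of genes for Mtor and 22.0% for Mlst8 went below.

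Deptor encodes a DEP-domain protein that binds mTOR in both complexes and inhibits its kinase activity. The gene (chromosome 15, bases 54975710 to 55122667, plus strand) was at 19.1 FPKM in WT and 7.04 FPKM in the KO-labelled library. Its log2 fold change was −1.32, and without the added 1 its level was 2.71-fold lower. Only 2.16% of all genes past the filter had a lower log2 fold change. Deptor had the lowest value of the 10, so this share is that of the extreme of the set. Among the 4189 genes with a mean between 5 and 20 FPKM, which include 8 of the 10 described here, the central 90% of log2 fold changes ran from −0.73 to 0.69, and 1.91% of them lay below Deptor. In WT Deptor ranked 3 of the 10 genes by level, below Akt1s1 and Rheb, and in the KO-labelled library it ranked 10 of 10. With a pseudocount of 5 in place of 1 its log2 fold change was −0.9999, just short of 2-fold. No protein-coding gene overlaps it in the annotation. As the one gene of the set past 2-fold, its surroundings are described in detail further on.

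**Figure D2:**
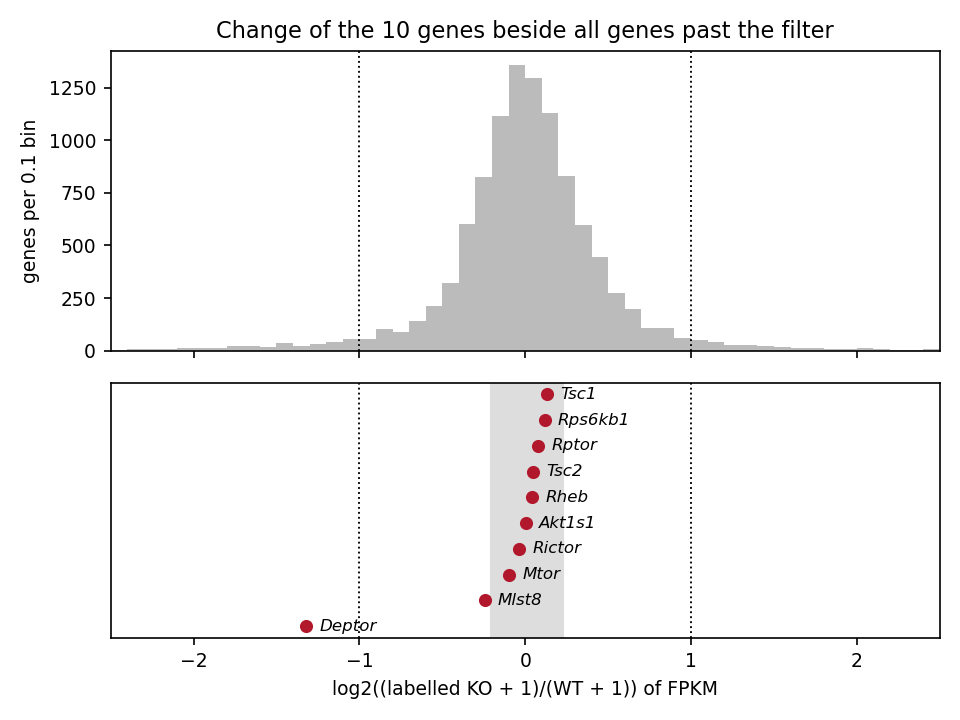
Log2 fold changes of all genes past the filter as a histogram (upper panel, genes per bin of 0.1, with values beyond 2.5 in either direction outside the plot) and of the 10 genes as points (lower panel). Dotted lines mark 2-fold and the grey band the interquartile range of all genes; Deptor lies left of the 2-fold line at −1.32, Mlst8 at the left edge of the band and the other 8 inside it.

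The subunits particular to mTORC1 were at nearly the same level in both libraries. Rptor encodes Raptor, the scaffold that recruits substrates (chromosome 11, bases 119493731 to 119790402, plus strand), and was at 12.5 FPKM in WT and 13.2 FPKM in the KO-labelled library, a log2 fold change of 0.08. Akt1s1 encodes PRAS40, an Akt substrate that inhibits mTORC1 until it is phosphorylated (chromosome 7, bases 44498415 to 44504908, plus strand). It was at 116 FPKM in both, the highest level of the 10 genes, and its log2 fold change of 0.0031 turned negative under both other scalings of the libraries, where it was −0.0034 and −0.011. Of the pair of inhibitory proteins bound to mTORC1, the RNA of one was thus 2.71-fold lower and that of the other nearly equal.

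Rictor encodes the scaffold that defines mTORC2 and, like Deptor, lies on chromosome 15 (bases 6737860 to 6829882, plus strand), but near its other end. It was at 7.51 FPKM in WT and 7.29 FPKM in the KO-labelled library. Its log2 fold change of −0.04 was above the median of −0.14 of its neighbours, and became 0.10 once that median was subtracted. The level of Rptor per Rictor, the scaffolds of the competing complexes, was 1.66 in WT and 1.81 in the KO-labelled library.

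The genes of the TSC-Rheb switch were higher in the KO-labelled library, all by small amounts. Tsc1 encodes hamartin, which stabilises the TSC complex (chromosome 2, bases 28531061 to 28581179, plus strand), and was at 6.78 FPKM in WT and 7.54 FPKM in the KO-labelled library. Its log2 fold change of 0.13 was the highest of the 10 genes, and 65.4% of all genes lay below it. Tsc2 encodes tuberin, the subunit with the GTPase-activating domain (chromosome 17, bases 24814783 to 24852192, minus strand). It was at 12.6 FPKM in WT and 13.1 FPKM in the KO-labelled library, with a log2 fold change of 0.050.

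Rheb, the GTPase that activates mTORC1 (chromosome 5, bases 25007821 to 25047622, minus strand), was at 69.5 FPKM in WT and 71.6 FPKM in the KO-labelled library, a log2 fold change of 0.041. The switch and its brake kept close to the same proportion, with 5.52 FPKM of Rheb per FPKM of Tsc2 in WT and 5.48 in the KO-labelled library. Against Tsc1 the same ratio was 10.3 and 9.50. Tsc2 exceeded Tsc1 by 1.86 times in WT and 1.73 times in the KO-labelled library.

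Rps6kb1 encodes S6K1, the kinase that mTORC1 phosphorylates to promote translation (chromosome 11, bases 86360804 to 86435982, minus strand). It was at 14.3 FPKM in WT and 15.6 FPKM in the KO-labelled library, with a log2 fold change of 0.12. Its paralogue Rps6kb2, which was chosen for comparison after its values were seen, was at 9.59 and 7.56 FPKM. The ratio of the first to the second was 1.49 in WT and 2.06 in the KO-labelled library. Rps6kb1 shares 14526 bases with Rnft1 on the opposite strand, which was at 13.6 FPKM in WT and 13.7 FPKM in the KO-labelled library. The strand setting of the counting is not stated, so reads of these overlapping genes may not have been kept apart. Shorter overlaps with protein-coding genes exist for Mtor, Rptor, Akt1s1, Mlst8 and Tsc2, and none for Deptor, Rictor, Tsc1 or Rheb.

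Per unit of Mtor, the proportions of the set differed most for Deptor. It stood at 2.09 FPKM per FPKM of Mtor in WT and 0.833 in the KO-labelled library, and at 1.73 and 0.769 per FPKM of Mlst8. The corresponding ratio for Rptor to Mtor was 1.37 and 1.56, and that for Rictor to Mtor was 0.824 and 0.863. These are proportions of RNA and say nothing of the make-up of the complexes.

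Most genes of the chromosome 15 stretch that holds Deptor were lower in the KO-labelled library. On the whole chromosome 344 of 434 genes past the filter were lower, with a median log2 fold change of −0.31. Among all genes past the filter 5192 of 10542 were lower, with a median of 0.0061. From Taf2, which with Dscc1 lies directly before Deptor, to the end of the chromosome, 288 of 337 genes were lower, with a median of −0.37, and before Taf2 the count was 56 of 97 and the median −0.071. The boundary at Taf2 was set after the values were seen, so the contrast between its sides is in part fixed by that choice. Taf2, a TFIID subunit, was at 20.2 FPKM in WT and 13.9 FPKM in the KO-labelled library, a log2 fold change of −0.50. Dscc1, which helps load the replication clamp, was at 11.9 and 8.88 FPKM, a log2 fold change of −0.39. On the other side, Mrpl13, a mitochondrial ribosomal protein, had a log2 fold change of −0.37 and Mtbp, an MDM2-binding protein, one of −0.43.

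Within 5 Mb of Deptor, 21 of 31 genes past the filter were lower, 1 of them by more than 2-fold, and 0 of the 31 lay below it. That 1 gene was Mtss1, an actin regulator, at 45.2 FPKM in WT and 20.04 FPKM in the KO-labelled library, a log2 fold change of −1.14. The median of the 31 neighbours was −0.18, and Deptor less that median was −1.14. With the sides taken separately, the median was −0.083 over 9 genes before Deptor and −0.19 over 22 genes after it, which left −1.24 and −1.13. Less the median of the 336 other genes of the distal stretch, −0.37, Deptor was at −0.96, short of 2-fold. Along the whole distal stretch 12 of 337 genes, or 3.56%, lay below Deptor and 21 were past 2-fold lower. Among all genes past the filter the shares were 2.16% and 3.43%. One close neighbour went the other way: Ccn3, a matricellular protein gene, was at 0.847 FPKM in WT and 4.18 FPKM in the KO-labelled library. The part of the regional shift in the level of Deptor was not tested. Taf2, Dscc1, Mrpl13, Mtbp, Mtss1 and Ccn3 were chosen after their values were seen.

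**Figure D3:**
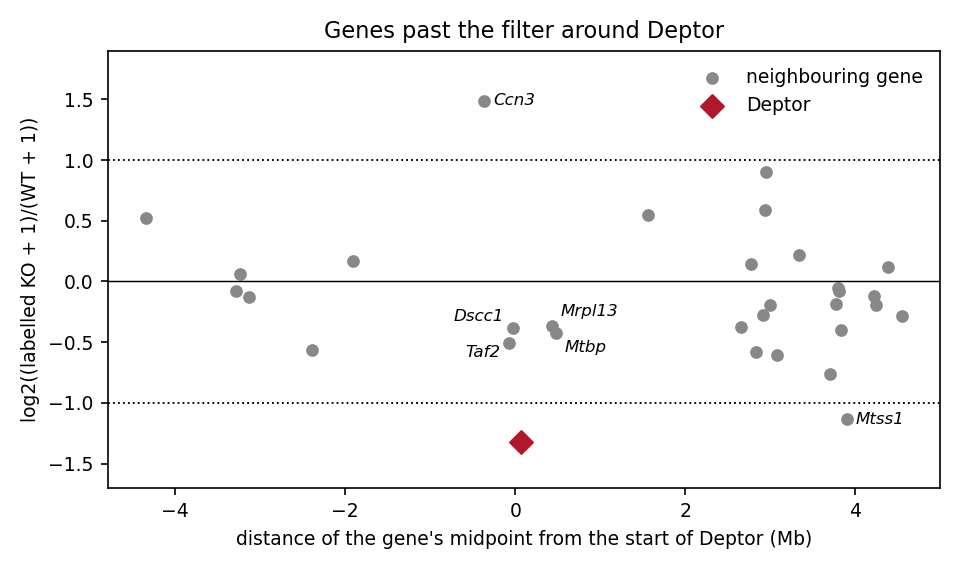
Log2 fold change (y axis) of the 31 genes past the filter within 5 Mb of Deptor, by the distance in megabases from the start of Deptor to each gene's midpoint (x axis); each grey point is 1 gene, the red diamond is Deptor and dotted lines mark 2-fold. Deptor lies lowest at −1.32, and the 4 genes nearest to it on the plot that are named beside Ccn3 and Mtss1 lie between −0.50 and −0.37.

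Genes that surround the mTOR complexes were followed in 11 lists of 118 genes, of which 117 were found in the files and 106 passed the filter. Of the 106, 56 were higher and 50 lower in the KO-labelled library, and their median was 0.026. Of the 106, 1 gene was past 2-fold higher and 2 past 2-fold lower, and 6 and 7 were past 1.5-fold. Among all genes past the filter, 2.84% and 3.43% were past 2-fold, and 7.68% and 7.50% past 1.5-fold. Counts this small do not set the lists apart from all genes. With a pseudocount of 5 the number past 2-fold lower was 0.

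**Figure D4:**
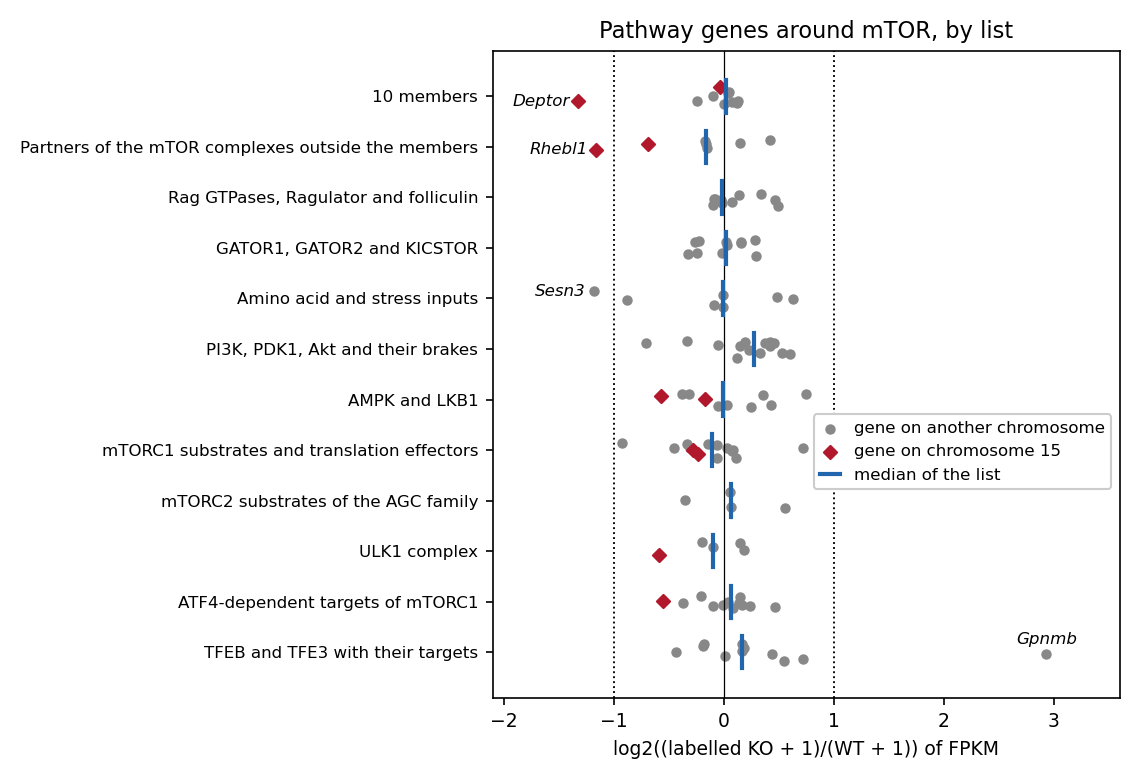
Log2 fold change (x axis) of each gene past the filter in the 10 genes described here and in the 11 lists (y axis), with diamonds for genes on chromosome 15, circles for genes on other chromosomes and a vertical bar at the median of each list. Dotted lines mark 2-fold; Deptor, Rhebl1 and Sesn3 lie beyond the left line, Gpnmb beyond the right one at 2.93, and vertical spread within a line carries no value.

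Among 8 further partners of the complexes, 7 passed the filter, 2 were higher and 5 lower, and the median was −0.16. Rhebl1, a Rheb-like GTPase, was at 6.81 FPKM in WT and 2.498 FPKM in the KO-labelled library, a log2 fold change of −1.16. It too lies on distal chromosome 15, and its value less the median of its neighbours was −0.76. Rheb itself exceeded Rhebl1 by 10.2 times in WT and 28.7 times in the KO-labelled library. Tti1, a co-chaperone of mTOR and related kinases, had the highest value of the list, at 9.62 and 13.2 FPKM and 0.42 on the log2 scale. Prr5, which encodes the Rictor partner Protor-1, was at 6.27 and 3.51 FPKM with a log2 fold change of −0.69, again on distal chromosome 15, and was named after its value was seen.

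In all, 7 genes of the lists lie on that distal stretch, and each of the 7 was lower in the KO-labelled library, with a median of −0.57. Most genes there were lower whatever their role, 288 of 337 with a median of −0.37. Besides Rhebl1 and Prr5 they are Prkag1, Atg101, Atf4, Eif4b and Maf1. Eif4b, a translation initiation factor downstream of S6K1, was at 219 and 180 FPKM, and Maf1, a repressor of RNA polymerase III, at 67.1 and 56.8 FPKM; less the median of their neighbours these became 0.13 and 0.16. The other 5 stayed negative after that subtraction, at −0.76 for Rhebl1, −0.35 for Prr5, −0.19 for Atg101, −0.17 for Prkag1 and −0.16 for Atf4. The part of the shared shift in these values was not tested.

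The amino acid route was nearly level at its core. Of the 13 genes of the Rag GTPases, Ragulator and folliculin, 11 passed the filter, 5 were higher and 6 lower, and the median was −0.018. Lamtor4, a Ragulator subunit, was the highest at 33.1 FPKM in WT and 47.2 FPKM in the KO-labelled library, a log2 fold change of 0.50. Flcn, which encodes the folliculin subunit of a GTPase-activating complex for the Rag proteins, was the lowest at 19.5 and 18.2 FPKM, a log2 fold change of −0.094. Rragd, a Rag GTPase under the filter and named after its value was seen, was at 1.28 FPKM in WT and 0.11 FPKM in the KO-labelled library.

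A palindromic E-box, CACGTG, is the core of the element bound by TFEB and TFE3, transcription factors that mTORC1 keeps out of the nucleus. It was looked for in the 250 bases before the start of each gene in RefSeq promoters of GRCm38.p6, and reads the same on both strands. Promoters were found for 9 of the 10 genes, Deptor being the exception, and only that of Rheb held it. Among the Rag, Ragulator and folliculin genes 5 of 12 held it, among all pathway lists 18 of 99, and among all 27025 symbols 6.86%. The pathway lists include targets of TFEB and TFE3, of which Lamp1, Ctsd and Mcoln1 held it. The share of the lists is therefore in part fixed by their choice. The motif holds a CpG, and CpGs were more frequent in the promoters of these sets, with a median of 19 in the same 250 bases for the 10 genes, 15.5 for the Rag, Ragulator and folliculin genes and 15 for all pathway lists, against 6 for all promoters, so the shares are not matched for CpG content. The windows below, read on each gene's own strand and with each E-box in capitals, are shown because the E-box is a letter sequence that Rheb shares with these genes of the amino acid route. They lie at chr5:24842435-24842474 on the minus strand for Rheb and, on the plus strand, at chr4:123917304-123917343 for Rragc, chr7:101905752-101905791 for Lamtor1, chr5:138255361-138255400 for Lamtor4 and chr11:54438087-54438126 for Fnip1.
Rheb: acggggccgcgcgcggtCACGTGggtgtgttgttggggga
Rragc: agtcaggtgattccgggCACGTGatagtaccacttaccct
Lamtor1: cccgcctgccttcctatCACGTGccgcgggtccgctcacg
Lamtor4: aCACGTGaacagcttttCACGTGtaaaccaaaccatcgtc
Fnip1: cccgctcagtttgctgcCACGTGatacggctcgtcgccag

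The E-box stood 96 bases before the start for Rheb, 112 for Rragc, 68 for Lamtor1, 75 for Fnip1, and at both 104 and 120 for Lamtor4, whose window holds 2. The log2 fold changes of these genes were 0.041 for Rheb, −0.06 for the Rag GTPase gene Rragc, 0.34 for the Ragulator anchor gene Lamtor1, 0.50 for Lamtor4 and 0.14 for the folliculin partner gene Fnip1. The remaining gene of the 5, Rragb, was at 0.018 FPKM in WT and listed at 0 in the KO-labelled library. A match describes letters and not binding, and no order follows from these values. The genes were picked by the motif, which was itself chosen after the expression values were known, as were 6 other short motifs searched in the same windows.

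Upstream of the Rag GTPases, the GATOR1, GATOR2 and KICSTOR genes passed the filter in 11 of 12 cases, with 6 higher, 5 lower and a median of 0.023; Kics2 was not matched to a symbol in the files. Kptn, a KICSTOR subunit, was the highest at 5.50 FPKM in WT and 6.95 FPKM in the KO-labelled library, a log2 fold change of 0.29. The sensors and stress inputs were more spread. Of 8 genes 7 passed, with 2 higher and 5 lower and a median of −0.0079, which became −0.25 with the neighbour medians subtracted. Sesn3 and Sesn2, both sestrins, a family that restrains mTORC1 when cells are stressed, lay at the opposite ends of the list. Sesn3 was at 3.03 FPKM in WT and 0.779 FPKM in the KO-labelled library, a log2 fold change of −1.18, while Sesn2 was at 6.42 and 10.5 FPKM, a log2 fold change of 0.63. Castor1, an arginine sensor named after its value was seen, was at 3.29 and 1.33 FPKM, a log2 fold change of −0.88.

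The growth factor route had the highest median of the lists. Of 16 genes for PI3K, PDK1, Akt and their brakes, 14 passed the filter, and 11 were higher and 3 lower in the KO-labelled library. That is 78.6% higher, beside 50.7% of all genes. Their median was 0.28 and stayed between 0.18 and 0.29 under the alternatives tried, and 0 were past 2-fold. The list holds both activators and brakes, and both kinds were among the higher ones. Phlpp1, a phosphatase that acts on Akt, was the highest at 4.79 FPKM in WT and 7.77 FPKM in the KO-labelled library, a log2 fold change of 0.60. Irs1, the adaptor between insulin and IGF receptors and PI3K, was the lowest at 37.7 and 22.8 FPKM, a log2 fold change of −0.70. Beside the 78.6% of this list, the share of higher genes in the other lists ran from 28.6% to 75%. The lowest share was that of the further partners and of the amino acid and stress inputs. All lists were drawn up with earlier results of these data known.

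Akt1, named after its value was seen, was at 167 FPKM in WT and 185 FPKM in the KO-labelled library. The subunits of AMPK, which restrains mTORC1 when energy is low, and its activator LKB1 were split. Of 11 genes 10 passed, with 5 higher, 5 lower and a median of −0.011. Prkag2, a regulatory gamma subunit, was the highest at 2.04 and 4.11 FPKM, a log2 fold change of 0.75. Prkag1, the gamma subunit with the higher level here and a gene of distal chromosome 15, was the lowest at 102 and 68.3 FPKM, a log2 fold change of −0.57.

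Downstream of mTORC1, 14 of 15 substrate and translation genes passed the filter, with 5 higher and 9 lower and a median of −0.10. The 4E-BP family, which blocks the cap-binding protein eIF4E until mTORC1 phosphorylates it, held both ends. Eif4ebp2 was at 36.5 FPKM in WT and 60.8 FPKM in the KO-labelled library, a log2 fold change of 0.72. Eif4ebp3 was at 2.08 and 0.617 FPKM, a log2 fold change of −0.93. Eif4ebp1, named after its value was seen, had the highest level of the family and was nearly equal at 71.8 and 68.8 FPKM.

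Downstream of mTORC2, 4 of 6 AGC kinase genes passed, with 3 higher and 1 lower and a median of 0.064. Prkce, a protein kinase C isoform, was at 1.77 FPKM in WT and 3.06 FPKM in the KO-labelled library, a log2 fold change of 0.55. Prkcd, another isoform, was at 12.2 and 9.29 FPKM, a log2 fold change of −0.35.

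The ULK1 complex starts autophagy and is inhibited by mTORC1. All 5 of its genes passed the filter, with 2 higher and 3 lower and a median of −0.099. Atg101, a small subunit encoded on distal chromosome 15, was the lowest at 33.5 FPKM in WT and 21.9 FPKM in the KO-labelled library, a log2 fold change of −0.59. Rb1cc1, the scaffold FIP200, was the highest at 16.01 and 18.3 FPKM, a log2 fold change of 0.18. Ulk1, the kinase, named after its value was seen, was at 9.29 and 8.00 FPKM.

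The last lists hold genes of transcriptional programmes that mTORC1 can influence. Whether their values follow mTORC1 activity in these libraries was not tested. Atf4, the transcription factor whose translation mTORC1 promotes, and 11 of its targets in amino acid synthesis and transport all passed the filter, with 7 of the 12 higher, 5 lower and a median of 0.062. Slc7a5, an amino acid transporter, was the highest at 77.7 FPKM in WT and 107 FPKM in the KO-labelled library, a log2 fold change of 0.46. Atf4 was the lowest at 413 and 282 FPKM, a log2 fold change of −0.55, and lies on distal chromosome 15.

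The list of TFEB, TFE3 and their targets passed the filter in 11 of 12 cases, with 8 higher, 3 lower and a median of 0.17. That is 72.7% higher, beside 50.7% of all genes. The 8 higher ones are not targets alone. They include the transcription factor genes Tfe3 and Mitf, with log2 fold changes of 0.16 and 0.72. Both were named after their values were seen. Gpnmb, a lysosomal glycoprotein gene, was the one list gene past 2-fold higher, at 10.1 FPKM in WT and 83.5 FPKM in the KO-labelled library, a log2 fold change of 2.93. Tfeb was the lowest at 11.2 and 7.98 FPKM, a log2 fold change of −0.44.

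The libraries differed in far more than the mTOR genes, and the cell type labels were read against marker genes. The 8 myoblast markers summed to 246 FPKM in WT and 54.1 FPKM in the KO-labelled library. Of the 6 past the filter 4 were past 2-fold lower, beside 3.43% of all genes, and 1, Myf5, higher, beside 2.84%. Myod1, a defining factor of myoblasts, was at 59.97 FPKM in WT and listed at 0 in the KO-labelled library. The others past 2-fold lower were Des at 97.6 and 3.84 FPKM, Cdh15 at 16.6 and 0.701 FPKM and Chrna1 at 15.3 and 0.917 FPKM. Pax7 was listed at 0 in both libraries. The 6 fibroblast markers summed to 21.1 and 321 FPKM, and 2 matrix genes made up nearly all of the difference, Col1a1 at 9.66 and 273 FPKM and Postn at 0.44 and 33.9 FPKM. Pdgfra was at 10.8 and 12.3 FPKM and Dcn at 0.272 and 1.68 FPKM, while Lum and Thy1 were listed at 0 in both. The 7 markers of differentiated muscle summed to 2.67 and 3.99 FPKM, of which Acta1 was 1.84 and 3.93 FPKM. The other markers of differentiated muscle were all under the filter, at no more than 0.604 FPKM in either library. Their values were lower in the KO-labelled library or, for Myh8, listed at 0 in both, but lie too near 0 to give a direction. The sums of the endothelial, leukocyte and adipocyte lists of 3 genes each were at most 2.90 FPKM in either library, with Cdh5, Kdr, Ptprc, Adipoq and Plin1 listed at 0 in both. The part of these marker differences in the values of Deptor and the pathway lists was not tested.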

How the data were processed

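The authors trimmed reads with TrimGalore, aligned them with STAR and quantified them with RSEM; the submitters' processing notes give Trim Galore 0.6.6, STAR 2.7.9a and RSEM 1.3.3. The methods name GRCm39 and the notes GRCm38, and library kit and sequencer differ between the labels and the methods. The deposited values, listed by gene symbol for each library, were read as FPKM; no header states the unit, which was inferred from unequal column totals (568543 and 574253) and from steps that follow transcript length. Expression values of human samples were not analysed here. Without read numbers no counting interval could be computed.

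Of 21853 values per library, 24 repeated a symbol and the one with the higher mean was kept. Log2 fold changes used a pseudocount of 1 and a mean of at least 1 FPKM. This scale understates the change of low genes. The most frequent ratio of labelled KO to WT among 1146 low genes, an estimate of what 1 read is worth in each library, was 1.12. No test was possible with 1 library per genotype. Positions came from GENCODE vM39 on GRCm39 by symbol, and promoters from RefSeq on GRCm38.p6. Python 3.11.15, numpy 2.4.6, pandas 2.3.3 and matplotlib 3.10.9 were used.

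The 10 genes and all lists were chosen with earlier results of these data known. Genes named by rule were the 10, Gne, and from each list those past 2-fold and the highest and lowest past the filter, except where a value is not reported here. Alternatives were a median of ratios scaling, equal totals, no filter, summed repeated symbols subtraction of the neighbour median, a pseudocount of 0.1 or 5, and a filter at a mean of 5 FPKM. Leaving out chromosome 15, taking the sides of Deptor separately and subtracting the median of its distal stretch were added after seeing the data.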

Additional observations from a re-analysis of the deposited data

How the results depend on the processing

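Deptor was lower under all alternatives tried, with log2 fold changes from −1.43 to −0.96. The value nearest to 0, −0.96, came with the median of the distal stretch of chromosome 15 subtracted, an alternative added after seeing the data. With a pseudocount of 5 its value was −0.9999, just short of 2-fold, so that 0 of the 10 genes were past 2-fold lower there. The direction of the other 9 turned in 3 of 80 comparisons over the 10 genes, for Akt1s1 under both scalings and for Rictor with the neighbour median subtracted. Over all genes, 299 were 2-fold higher and 362 lower, which became 102 and 176 with a pseudocount of 5; a filter at 5 FPKM gave 145 and 221. Of the pathway lists together, the number 2-fold lower was 4 with a pseudocount of 0.1, 0 with a pseudocount of 5, 0 with a filter at 5 FPKM, 1 with the neighbour median subtracted and 1 without chromosome 15, against 2. The median of the amino acid and stress inputs moved from −0.0079 to −0.25 with the neighbour median subtracted. The median of a list turned in 7 of 108 comparisons, for the Rag, GATOR, AMPK, AGC kinase, ULK1 and ATF4 lists and all lists together, whose medians were no larger than 0.099 in size. No paired analysis was possible because each genotype has 1 library, and none could be left out. The depth behind each value is unknown, and 1 clone against 1 parental library cannot tell the genotype from differences between clones or cultures.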
